A study of Mus musculus with 6 samples.

Results

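The genes described here are 46 regulators of chromatin and DNA methylation, the enzymes and structural proteins that write, erase and read chemical marks on DNA and histones or move and hold the chromatin fibre. The rule for membership was a list of gene names and used no measured value, but the list was drawn up with earlier results of these data known, so their counts are a description. All 46 were found among 19938 genes. Each gene was read from the probe set with 1 gene symbol that had the highest mean over the 6 arrays. The arrays measured RNA from mouse haematopoietic stem and progenitor cells sorted as cKit+Sca1+Lin-, called KSL cells, the fraction that holds blood stem cells and early progenitors.

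All mice carried floxed Runx1 and Runx3 alleles, and the parent lines had been backcrossed to C57BL/6 for 3 generations or more. The 3 samples labelled DKO were Runx1fl/fl;Runx3fl/fl;Mx1-Cre+, and the 3 WT samples came from Runx1fl/fl;Runx3fl/fl;Mx1-Cre- littermates. Mx1-Cre is driven by an interferon-responsive promoter and is switched on by pIpC, a mimic of double-stranded RNA, injected into the abdomen of 4-week-old animals as 600 µg per dose, 7 doses in all, 1 every other day. Both groups carry the same protocol text, while the sample descriptions call the cells untreated, and the time from last dose to sort is not given. Cre itself differs between the groups as the deletion does, so an effect of Cre and one of the lost genes cannot be told apart. Each WT sample pooled 3 mice. For DKO samples no pooling is described, and the design text counts 6 mice in all.

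Runx1 and Runx3 are DNA-binding proteins that recruit many of these regulators, among them histone acetyltransferases and deacetylases, to the genes they control. In blood stem cells the DNA methyltransferase Dnmt3a and the oxidase Tet2 are known to limit self-renewal. Polycomb and MLL proteins are known to hold stem cell genes silent or active through histone methylation. Many of the members are recurrently mutated in human leukaemias.

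Values are log2 signals, so a difference of 1 is a doubling, and differences are given as DKO minus WT with standard errors (SE) and Benjamini-Hochberg adjusted p-values from limma over all 19938 genes. A gene is said to have risen or fallen where its adjusted p was under 0.05. The labels were first checked with the targeted genes. Runx1 signal was 9.22, 9.37 and 9.28 in DKO replicates 1 to 3 and 8.49, 8.53 and 8.38 in WT replicates 1 to 3, higher in every array labelled DKO. Runx3 signal was 7.40, 7.40 and 7.34 against 7.53, 7.59 and 7.47, lower in every such array without passing (adjusted p = 0.253). The Runx1 signal therefore goes against a loss of its transcript, and whether these probes lie inside the deleted exons was not examined. DKO below always means the arrays labelled DKO. Array medians ran from 5.88 to 5.91, and correlations between arrays were 0.978 to 0.991 within groups and 0.967 to 0.972 between them. In pooled cell RNA, fewer cells of a type and less RNA per cell cannot be told apart.

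In the deposited values more of the 46 members were higher than lower in the DKO arrays, 34 against 12. Of the 46 members 18 rose, 2 fell and 26 did not pass, where 9.71% of all genes rose and 7.69% fell. The rises were led by the histone demethylase Kdm6a, the remodeller Chd7, the PRC2 partner Jarid2 and the demethylase Kdm5b, at 1.04, 0.88, 0.83 and 0.80. The falls were those of the histone deacetylase Hdac9 at -1.02 and the SWI/SNF motor Smarca4 at -0.32. Every DKO value lay above every WT value in 24 members and below in 5, beside 16.2% and 19.6% of all genes. The median difference was 0.21 over the members and -0.04 over all genes, and the differences ran from -1.02 to 1.04.

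Gene length and signal strength moved with these differences. The members were long genes, with a median genomic span of 68.5 kb against 17.7 kb over all genes, and 44 of 46 were longer than that overall median. Their median signal stood at the 91.3 percentile of all genes. Differences correlated with span over the 19853 genes whose span was known (Spearman rho = 0.146) and with signal over all 19938 genes (rho = 0.213), while over the 46 members the values were 0.483 and 0.227. These are descriptions across genes that share the same 6 arrays. With a trend over span and signal removed, 10 members rose and 5 fell, where 7.23% of genes rose and 7.42% fell in the same fit, and the median difference of the members was -0.02. The trend subtracted 0.22 from the median member and between -0.04 and 0.32 from single ones. All 10 of those rises and both falls of the deposited values were among the calls in both fits. Quantile normalisation gave 12 rises and 3 falls and cyclic loess 13 and 5, so that 80% and 72.2% of the called members rose, beside 90% in the deposited values. Of all called genes 50.7% and 53.7% rose under these scalings, beside 55.8% in the deposited values. The median difference of the members was then 0.06 and 0.08.

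**Figure D1:**
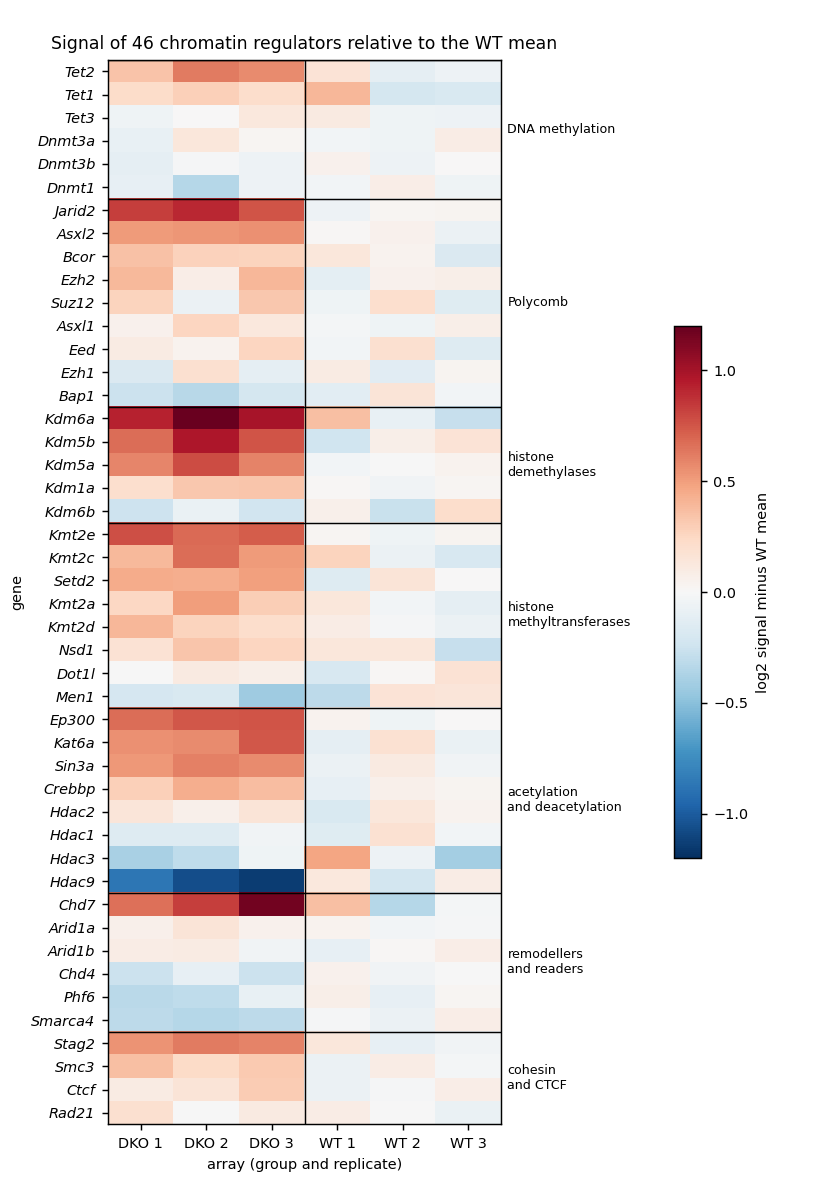
Each row is 1 of the 46 genes, grouped by role, and each column 1 array, with the colour giving the log2 signal minus the mean of the 3 WT arrays of that gene. The DKO columns of Kdm6a, Jarid2, Kdm5b, Kdm5a, Kmt2e, Ep300 and Chd7 are red throughout and those of Hdac9 are blue, while the rows of Dnmt3a, Dnmt3b, Arid1a and Arid1b stay pale in all 6 arrays.

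**Figure D2:**
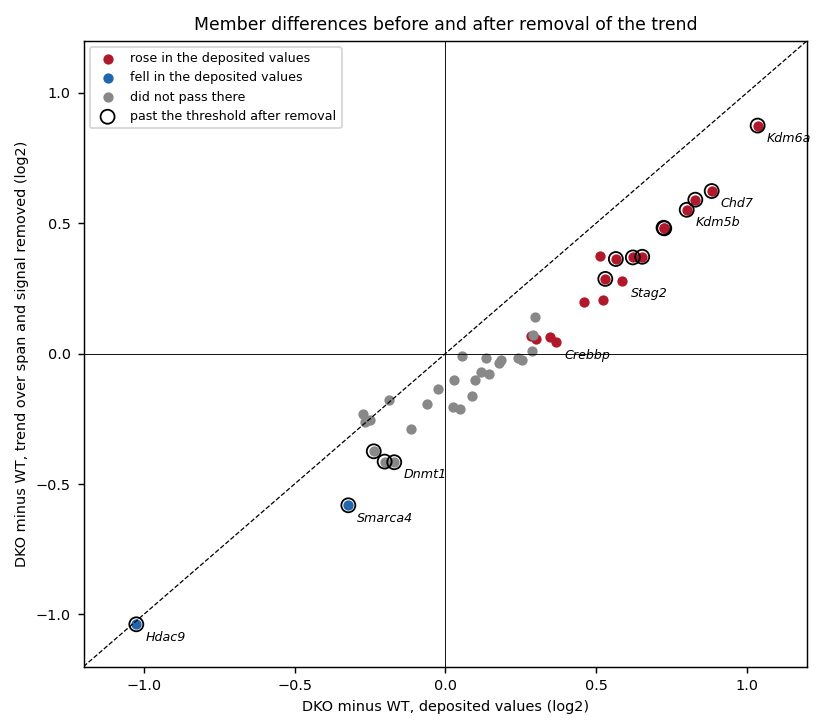
The horizontal axis gives the difference between DKO and WT in the deposited values and the vertical axis the same after removal of the trend over gene span and signal, both on the log2 scale, for 46 genes. Nearly all points lie below the dashed line of equal values, Kdm6a stays the highest at 0.87 and Hdac9 stays at -1.04, while Crebbp comes to 0.04.

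The promoters of the 3 members with the largest rises among those with an entry, and of both members that fell, are shown because Runx proteins bind DNA at a short motif. Promoters in the RefSeq table of GRCm38.p6 were matched for 35 of the 46 members (not for Chd7, Hdac1, Hdac3, Nsd1, Rad21, Kat6a, Kdm6b, Kmt2e, Kdm5a, Phf6 and Stag2), and the 250 bases before the most upstream listed start of each gene were searched for TGTGGT and TGCGGT on both strands. The windows are chrX:18162325-18162574 (plus strand) for Kdm6a, chr13:44730524-44730773 (plus) for Jarid2, chr1:134559928-134560177 (plus) for Kdm5b, chr12:34917096-34917345 (minus) for Hdac9 and chr9:21615919-21616168 (plus) for Smarca4. They are written 5′ to 3′ along the gene, and capitals mark a match to either motif form.
Kdm6a: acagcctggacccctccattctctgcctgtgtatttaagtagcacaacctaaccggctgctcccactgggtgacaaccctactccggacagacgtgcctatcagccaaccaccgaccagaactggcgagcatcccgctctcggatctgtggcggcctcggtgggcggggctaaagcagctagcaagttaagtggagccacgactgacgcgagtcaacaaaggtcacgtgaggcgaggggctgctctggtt
Jarid2: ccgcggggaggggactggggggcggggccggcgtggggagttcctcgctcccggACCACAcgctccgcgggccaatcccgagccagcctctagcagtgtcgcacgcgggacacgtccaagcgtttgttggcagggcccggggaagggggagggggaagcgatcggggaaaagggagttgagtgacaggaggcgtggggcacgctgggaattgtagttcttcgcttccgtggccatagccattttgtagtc
Kdm5b: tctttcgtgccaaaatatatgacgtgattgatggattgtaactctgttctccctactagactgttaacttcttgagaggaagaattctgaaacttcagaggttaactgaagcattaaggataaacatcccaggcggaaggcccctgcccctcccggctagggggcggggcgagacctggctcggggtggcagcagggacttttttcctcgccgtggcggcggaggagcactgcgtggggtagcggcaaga
Hdac9: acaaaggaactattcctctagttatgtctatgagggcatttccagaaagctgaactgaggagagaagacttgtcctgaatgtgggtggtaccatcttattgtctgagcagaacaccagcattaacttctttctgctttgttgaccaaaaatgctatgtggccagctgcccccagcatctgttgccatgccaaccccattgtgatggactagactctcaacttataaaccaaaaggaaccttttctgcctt
Smarca4: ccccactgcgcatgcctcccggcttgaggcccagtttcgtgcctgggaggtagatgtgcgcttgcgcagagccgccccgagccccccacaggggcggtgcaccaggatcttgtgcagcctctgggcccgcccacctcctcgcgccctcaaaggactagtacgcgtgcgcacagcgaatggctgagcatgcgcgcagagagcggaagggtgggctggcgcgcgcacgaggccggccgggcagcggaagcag

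Among these 5 only Jarid2 held a match, on the strand opposite to the gene and beginning 196 bases before the start. A match was found for 1 of 13 members that rose, 0 of 2 that fell and 4 of 20 that did not pass, which are Ezh2, Asxl1, Hdac2 and Ezh1. Over the 35 members this is 14.3%, beside 18.6% of the same window in 27025 genes. A match is a run of letters, not a bound site, and its absence concerns this window only.

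Among the enzymes of DNA methylation 1 of 6 rose, Tet2, which oxidises methylated cytosine as a step toward its removal. Tet2 signal was 7.34, 7.62 and 7.56 in the DKO arrays and 7.16, 6.88 and 6.94 in WT, a rise of 0.51 (SE 0.11, adjusted p = 0.0123). All DKO values stood above all WT values. The call rested on few arrays, since it was missed without DKO replicate 2 (0.46, adjusted p = 0.0527) or 3 (0.49, 0.054) and with the trend removed (0.38, 0.0515), in a range of 0.00732 to 0.054.

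The maintenance methyltransferase Dnmt1, which copies methylation onto newly made DNA, was at 9.62, 9.38 and 9.66 against 9.69, 9.80 and 9.67. Its DKO values lay below the WT values by a mean of 0.17 without passing (adjusted p = 0.294), and it passed at -0.42 with the trend removed (0.0227) and at -0.30 with cyclic loess (0.0485), in a range of 0.0227 to 0.659. It was at -0.08 without DKO replicate 2. Tet1 was at 9.07, 9.14 and 9.06 in DKO, and at 9.25, 8.64 and 8.66 in WT, where replicate 1 overlapped the DKO values. Its difference of 0.24 did not pass (adjusted p = 0.323), but did at 0.44 without WT replicate 1 (0.0128, in a range of 0.0128 to 0.958). Tet1 also passed when its probe sets were averaged. The other 2 Tet1 probe sets were at 0.20 and 0.67, the latter past the threshold in a fit over all 21789 probe sets (adjusted p = 0.00746).

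The de novo methyltransferases showed no called difference. Dnmt3a differed by 0.03 (95% interval -0.18 to 0.24) and Dnmt3b by -0.06 (-0.25 to 0.13). Tet3 differed by 0.03 (-0.18 to 0.23), while its other, dimmer probe set was at -0.33 and passed in the fit over probe sets (adjusted p = 0.034), so the probe sets of this gene disagree.

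Of the 9 Polycomb members 2 rose and 0 fell, where 9.71% of all genes rose and 7.69% fell. Jarid2, a partner that helps bring the H3 methyltransferase complex PRC2 to its targets, rose by 0.83, and Asxl2, which activates the histone H2A deubiquitinase Bap1, rose by 0.53. The core of PRC2, made up of the catalytic subunits Ezh1 and Ezh2 with Eed and Suz12, held no called gene.

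Jarid2 signal was 8.22, 8.30 and 8.15 in DKO against 7.34, 7.42 and 7.43 in WT. The groups were far apart relative to their spread (SD 0.072 and 0.053, SE 0.086, adjusted p = 0.00033), and Jarid2 was at 0.59 with the trend removed. Asxl2 was at 8.45, 8.47 and 8.49 against 7.95, 7.99 and 7.87 (SE 0.083, adjusted p = 0.00256). It came to 0.29 with the trend removed, still past the threshold (0.0462, the highest of its 17 alternatives).

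Bap1 itself was at 7.40, 7.32 and 7.44 in DKO and 7.52, 7.81 and 7.62 in WT. All its DKO values were the lower ones, and the difference of -0.27 did not pass (adjusted p = 0.0985), and quantile normalisation (0.0384) and cyclic loess (0.0434) each brought it past the threshold, in a range of 0.0384 to 0.245. Bcor, a corepressor in a variant PRC1 complex, was at 7.48, 7.40 and 7.39 against 7.26, 7.17 and 6.95. This difference of 0.30 did not pass (adjusted p = 0.0706), but did at 0.37 without WT replicate 1 (0.0432, in a range of 0.0432 to 0.41). Bcor also passed with median centring and without the dimmest 50% of genes.

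Ezh2 differed by 0.29 (95% interval 0.04 to 0.54, adjusted p = 0.109) with all DKO values above all WT values, and was at 0.01 with the trend removed. Suz12, Eed, Asxl1 and Ezh1 differed by 0.18, 0.13, 0.15 and -0.03, with adjusted p-values of 0.321 to 0.906 and overlapping groups. A dimmer probe set of Eed was at -0.07.

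Histone demethylases rose in 4 of 5 cases, and in 3 of 5 with the trend removed. Of all genes 9.71% and 7.23% rose in these fits. The largest rise of all members was that of Kdm6a, an X-linked enzyme that removes the methyl mark placed by PRC2. The related H3 lysine demethylases Kdm5a and Kdm5b, which erase a mark of active promoters, rose by 0.65 and 0.80. Kdm6b, the inducible relative of Kdm6a, did not pass.

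Kdm6a signal was 7.72, 7.98 and 7.78 in the DKO arrays and 7.16, 6.71 and 6.51 in WT. The WT arrays spread more (SD 0.329 against 0.137), yet all lay below the DKO values, and the rise was 2.05-fold (SE 0.15 on the log2 scale, adjusted p = 0.00213). It stayed between 0.87 and 1.22 over 17 alternatives. Uty, a Y-linked relative of similar sequence, was at 7.71, 7.56 and 7.56 against 6.78, 6.80 and 6.80 and rose by 0.82 (adjusted p = 0.000355). How far the probes of Kdm6a and Uty are shared was not tested. Xist, expressed from the inactive X chromosome of females, was dim at 4.45, 4.24 and 4.21 against 4.41, 4.97 and 4.83, without a called difference (adjusted p = 0.0643). The Y-linked Kdm5d and Eif2s3y rose by 0.67 and 0.44, and the X-linked Ddx3x rose by 0.64. The X-linked Eif2s3x (0.23) and Kdm5c (-0.24) did not pass. A part of the sex of the mice in these values was not tested.

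Kdm5b was at 8.90, 9.19 and 8.98 in DKO and 7.99, 8.29 and 8.39 in WT (SE 0.13, adjusted p = 0.00264), with 0.55 after removal of the trend. Kdm5a was at 9.75, 9.94 and 9.75 against 9.13, 9.16 and 9.21 (SE 0.09, adjusted p = 0.00142), with 0.37 after that removal. For both genes the groups were clear of each other.

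Kdm1a, also known as Lsd1, which removes methyl groups from H3 in complexes with Gfi1 proteins, was at 8.83, 8.95 and 8.96 against 8.64, 8.59 and 8.65. Its rise of 0.28 was close to the threshold (SE 0.084, adjusted p = 0.0458). The call was lost without any 1 of the 6 arrays (adjusted p = 0.0709 to 0.147), with quantile normalisation at 0.12 (0.419), with cyclic loess at 0.15 (0.312), with array weights (0.0553) and after trend removal at 0.07 (0.677), over a range of 0.0245 to 0.677. Kdm6b was at 6.30, 6.46 and 6.31 in DKO and 6.61, 6.28 and 6.75 in WT. These groups overlapped (difference -0.19, adjusted p = 0.351).

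Among the 8 histone methyltransferase members 4 rose and 0 fell, where 9.71% of all genes rose and 7.69% fell. Only 1 of the 8 rose with the trend removed, beside 7.23% of all genes. Kmt2e, a relative of the MLL proteins that is needed for normal blood stem cell function, rose by 0.73. Kmt2c, an MLL-family enzyme of enhancers, and Setd2, which marks the bodies of transcribed genes, rose by 0.52 and 0.46. Kmt2a, the MLL1 enzyme that sustains Hox gene expression, rose by 0.35. Its cofactor Men1 and Dot1l, a methyltransferase that MLL fusion proteins recruit, did not pass.

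Kmt2e signal was 9.35, 9.26 and 9.30 against 8.60, 8.52 and 8.61, a rise of 1.65-fold (SE 0.083 on the log2 scale, adjusted p = 0.000522). No array of 1 group came near the other group, and the value was 0.48 with the trend removed. Setd2 was at 8.91, 8.90 and 8.96 against 8.31, 8.62 and 8.47 (adjusted p = 0.0116), and its other probe set was at 0.73. With the trend removed Setd2 was at 0.20 and did not pass (0.226), nor did it with quantile normalisation (0.30, 0.0587), in a range of 0.0072 to 0.226.

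Kmt2c was at 8.68, 8.96 and 8.81 in DKO, and at 8.56, 8.23 and 8.10 in WT (adjusted p = 0.0224). The call was lost without DKO replicate 2 or 3 or WT replicate 2 or 3 (adjusted p = 0.0577 to 0.0837), with quantile normalisation (0.101), with cyclic loess (0.0763) and after trend removal (0.35, at 0.21), in a range of 0.00587 to 0.35. Kmt2a was at 9.71, 9.96 and 9.76 against 9.60, 9.43 and 9.36 (adjusted p = 0.0481). It missed the threshold without any 1 DKO array or WT replicate 2 or 3 (adjusted p = 0.0721 to 0.161), with quantile normalisation (0.238, at 0.21), with cyclic loess (0.242, at 0.21) and at 0.06 with the trend removed (0.761), over a range of 0.0282 to 0.761. Both genes were higher in all DKO arrays.

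Kmt2d, the partner enzyme of Kmt2c, differed by 0.29 with no overlap (adjusted p = 0.0552), while its second probe set was at -0.21, also with no overlap, so its probe sets point in opposite directions. Their mean was at 0.04 (0.79). Kmt2d passed in 5 of 17 alternatives, namely with median centring (0.34, 0.0316), both filters on dim genes, array weights (0.0471) and the trended robust fit, in a range of 0.0316 to 0.79. Men1 differed by -0.27 (adjusted p = 0.216) and passed at -0.43 without WT replicate 1 (0.0278, in a range of 0.0278 to 0.492). Nsd1 and Dot1l differed by 0.25 and 0.06 (adjusted p = 0.196 and 0.766).

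Of the 8 members that set histone acetylation 4 rose and 1 fell, where 9.71% of all genes rose and 7.69% fell. With the trend removed 3 rose and 1 fell, beside 7.23% and 7.42% of all genes. Ep300 and Crebbp, paralogous acetyltransferases that act as coactivators of Runx1 and many other factors, rose by 0.72 and 0.37, and Kat6a, the acetyltransferase also called MOZ that blood stem cells require, rose by 0.62. Sin3a, the scaffold of a complex that carries Hdac1 and Hdac2, rose by 0.57. Hdac9, a class IIa deacetylase with weak catalysis of its own, fell by 1.02, the largest change downward among the members. Hdac1, Hdac2 and Hdac3 did not pass.

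Ep300 was at 8.89, 8.96 and 8.97 in DKO and 8.26, 8.17 and 8.22 in WT (SE 0.082, adjusted p = 0.000522), and at 0.48 with the trend removed. Kat6a was at 8.56, 8.58 and 8.75 against 7.90, 8.19 and 7.93 (SE 0.11, adjusted p = 0.00406), and at 0.37 with the trend removed. Sin3a was at 8.34, 8.43 and 8.38 against 7.75, 7.93 and 7.78 (SE 0.088, adjusted p = 0.00253), and at 0.36 with the trend removed. In these 3 genes no DKO value reached down to a WT value, and each passed in all 17 alternatives.

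Crebbp was at 9.59, 9.75 and 9.68 against 9.21, 9.37 and 9.34, also without overlap (adjusted p = 0.0214). Its call was lost without DKO replicate 2 (0.0809) or 3 (0.0721), without WT replicate 1 (0.0554), with quantile normalisation (0.143, at 0.22), with cyclic loess (0.124, at 0.23) and at 0.04 with the trend removed (0.816), over a range of 0.0127 to 0.816.

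Hdac9 signal was 5.46, 5.27 and 5.19 in DKO and 6.46, 6.11 and 6.42 in WT, lower in every DKO array (SE 0.12, adjusted p = 0.000579). The mean signal in DKO, 5.31, lay below the array medians, so the size of this fall is less certain than its direction. It stayed between -1.14 and -0.96 over the 16 alternatives in which it was tested. Hdac3 was at 6.66, 6.74 and 7.00 against 7.52, 6.99 and 6.64, a wide and overlapping spread in WT (SD 0.443, adjusted p = 0.433). Hdac2 differed by 0.12 and Hdac1 by -0.11 (adjusted p = 0.472 and 0.5), with overlap in both.

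Remodellers and readers split. Chd7, a chromodomain remodeller of enhancers, rose by 0.88. Smarca4, the Brg1 motor of SWI/SNF complexes, fell by 0.32, and 4 of 6 members did not pass. Of all genes 9.71% rose and 7.69% fell. With the trend removed 1 of the 6 rose and 3 fell, beside 7.23% and 7.42% of all genes. The SWI/SNF subunits Arid1a and Arid1b differed by 0.09 (95% interval -0.10 to 0.27) and 0.05 (-0.15 to 0.25).

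Smarca4 was at 8.21, 8.18 and 8.21 in DKO and 8.51, 8.46 and 8.60 in WT, with every DKO value below (SE 0.084, adjusted p = 0.0272). The call was lost without any 1 DKO array or WT replicate 3 (adjusted p = 0.0787 to 0.085), while the difference was -0.58 with the trend removed (0.00206), the lowest of a range of 0.00206 to 0.085. Phf6, a PHD finger protein mutated in T cell leukaemia, was at 7.33, 7.34 and 7.57 against 7.73, 7.56 and 7.67 (-0.24, adjusted p = 0.135). Its groups overlapped in 1 pair of values, and it passed with the trend removed (-0.37, 0.0324, in a range of 0.0324 to 0.33). Chd4, the motor of the NuRD complex, differed by -0.20 without overlap (adjusted p = 0.154) and passed with cyclic loess (-0.33, 0.0467) and with the trend removed (-0.41, 0.0128), in a range of 0.0128 to 0.347.

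Chd7 was read out by 30 probe sets, far more than any other member. In the one used for the gene, signal was 8.22, 8.38 and 8.70 in DKO and 7.91, 7.21 and 7.53 in WT (SE 0.18, adjusted p = 0.00893). All DKO arrays were the higher ones. Over the 30 probe sets 28 were higher and 2 lower in DKO, 14 rose and 0 fell in the fit over all probe sets, and 18 showed no overlap with DKO above. The differences ran from -0.29 to 2.33 with a median of 0.33. The mean of the 30 probe sets was at 0.57 (adjusted p = 0.00311), smaller than the value of the probe set used. Probe sets of 1 gene share their RNA and are not replicates, and their positions within Chd7 were not used.

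**Figure D3:**
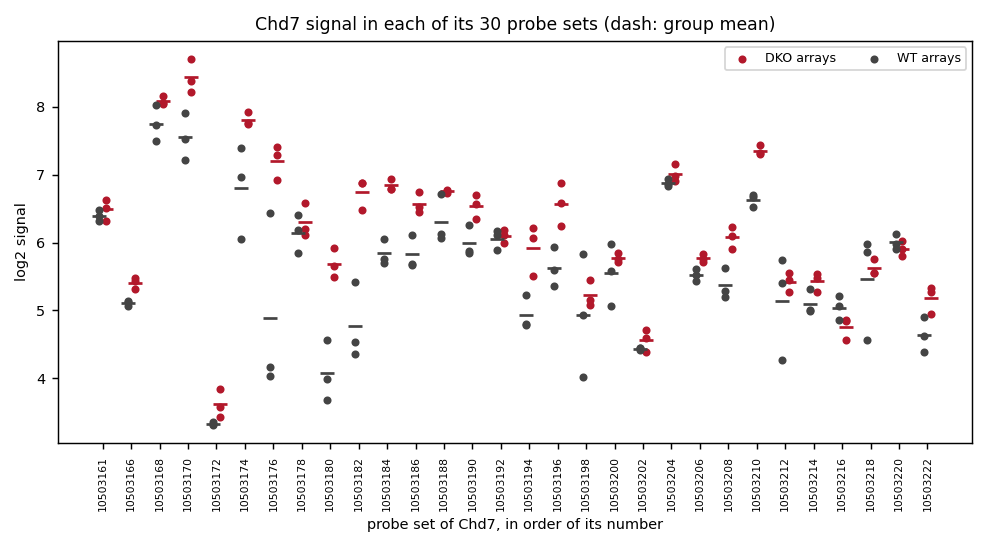
Each position on the horizontal axis is 1 of the 30 Chd7 probe sets in order of its number, and the vertical axis gives the log2 signal, with 3 points per group and a dash at each group mean. The DKO points lie above all WT points in 18 probe sets, and the widest gap, 2.33, is at a probe set in which WT replicate 2 stands well above the other WT arrays.

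All 4 members that hold chromatin loops had positive differences in the deposited values, and 2 of them rose, while 0 rose with the trend removed. The shares of all genes that rose in these fits were 9.71% and 7.23%. Stag2, the X-linked cohesin subunit that is often lost in myeloid leukaemia, rose by 0.59, and Smc3, a core arm of the cohesin ring, rose by 0.30. Rad21, which closes the ring, and Ctcf, the DNA-binding protein at which cohesin stops, did not pass.

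Stag2 was at 9.46, 9.56 and 9.53 in DKO and 9.07, 8.83 and 8.89 in WT (SE 0.093, adjusted p = 0.00272). The groups were clear of each other, and the call was lost only with the trend removed (0.28, 0.0767, the highest of its 17 alternatives). Smc3 was at 10.67, 10.55 and 10.62 against 10.24, 10.40 and 10.29 (adjusted p = 0.043). It missed the threshold without any 1 DKO array or WT replicate 1 or 3 (adjusted p = 0.0729 to 0.145), with quantile normalisation (0.138, at 0.20), with cyclic loess (0.178, at 0.18) and at 0.06 with the trend removed (0.748), over a range of 0.0167 to 0.748. Ctcf was at 8.93, 8.98 and 9.14 against 8.76, 8.82 and 8.91, every DKO value above without passing (difference 0.19, adjusted p = 0.21). Rad21 differed by 0.10 (adjusted p = 0.514). With the trend removed Rad21 was at -0.10 and Ctcf at -0.02.

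**Figure D4:**
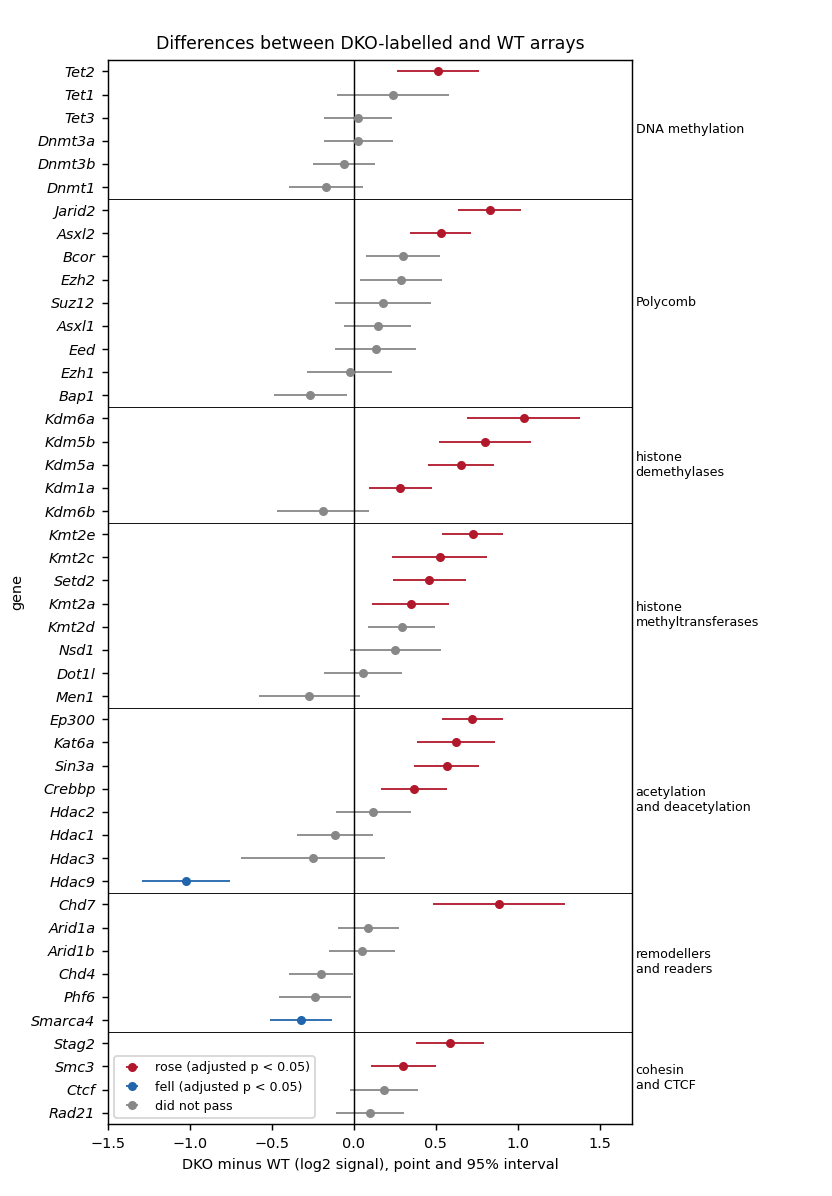
Points give the difference between DKO and WT on the log2 scale for each of the 46 genes, with 95% intervals of the fit, in red for the 18 that rose, blue for the 2 that fell and grey for the 26 that did not pass. Kdm6a is farthest to the right at 1.04 and Hdac9 farthest to the left at -1.02.

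Other genes of the same complexes were read from a list of 199 names, of which 192 were measured. Among these 29 rose, 25 fell and 138 did not pass, which is 15.1% and 13% beside 9.71% and 7.69% of all genes, with a median difference of -0.02. This near balance depended on scaling, with 17 rises and 35 falls under quantile normalisation and 17 and 32 under cyclic loess. There were 40 and 19 under median centring and 13 and 39 with the trend removed. Of all genes 7.96% rose and 7.75% fell under quantile normalisation, and 8.61% and 7.42% under cyclic loess. These shares were 11.3% and 5.62% under median centring and 7.23% and 7.42% with the trend removed.

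Of 19 further genes of cohesin and the related condensin and Smc5/6 complexes 9 rose and 2 fell, with 4 rises and 2 falls under both quantile normalisation and cyclic loess. Among the 9 that belong to cohesin or regulate it 6 rose and 0 fell, where 9.71% of all genes rose and 7.69% fell. Among the 10 of condensin and Smc5/6 3 rose and 2 fell, a division made after the values were seen. Under both quantile normalisation and cyclic loess 3 of the 9 rose, and of the 10 1 rose and 2 fell. With median centring 6 of the 9 and 4 of the 10 rose and 0 fell. With the trend removed 2 of the 9 and 0 of the 10 rose, and 2 of the 10 fell. Nipbl, which loads cohesin onto DNA, rose by 0.65 (adjusted p = 0.000783), the acetyltransferase Esco1 by 0.57, the cohesin regulator Pds5a by 0.47 and the condensin subunit Ncapd3 by 0.43. With the trend removed, Nipbl was at 0.30 and Esco1 at 0.48, both past the threshold, while Pds5a (0.16, adjusted p = 0.321) and Ncapd3 (0.23, 0.116) were not, and 2 of the 19 rose and 2 fell. The highest adjusted p of Pds5a and Ncapd3 over 17 alternatives was that one, and the lowest were 0.00452 and 0.00513.

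Of 18 other histone demethylase genes 4 rose (22.2%) and 1 fell (5.56%), beside 9.71% and 7.69% of all genes. With the trend removed 3 rose and 2 fell, beside 7.23% and 7.42% of all genes. Jmjd1c, Kdm3a and Kdm4c rose by 0.92, 0.85 and 0.60 and kept their calls in all 17 alternatives, although averaging its probe sets put Jmjd1c at 0.43, and removal of the trend put Jmjd1c at 0.58 and Kdm4c at 0.36. Hmg20b, a part of the Kdm1a complex, fell by 0.38, a call lost without DKO replicate 1 (adjusted p = 0.0896) or WT replicate 1 (0.0533) and with the trend removed (0.0595), in a range of 0.0133 to 0.0896.

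Of 30 other Polycomb genes 3 rose (10%) and 4 fell (13.3%), beside 9.71% and 7.69% of all genes. With the trend removed 2 rose and 6 fell, beside 7.23% and 7.42% of all genes. Phc3, a PRC1 subunit, and Mtf2, a PRC2 partner that binds unmethylated DNA, rose by 0.84 and 0.73, whereas the PRC1 subunits Pcgf2 and Kdm2b fell by 0.70 and 0.60, and these 4 passed in all 17 alternatives. Phc3 and Mtf2 were at 0.57 and 0.49 with the trend removed, and Phc3 at 0.53 when its probe sets were averaged. Of the 6 other PRC2 genes in this list Mtf2 alone rose, while Rbbp4 (0.32), Rbbp7 (0.15), Phf19 (0.01), Aebp2 (-0.16) and Phf1 (-0.19) did not pass.

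Among 35 other histone methyltransferase and MLL partner genes there were 3 rises (8.57%) and 6 falls (17.1%), beside 9.71% and 7.69% of all genes. With the trend removed there were 1 rise and 9 falls, beside 7.23% and 7.42% of all genes. Mllt3, a reader that supports stem cell self-renewal, rose by 1.11 (adjusted p = 0.000807) and was at 0.76 with the trend removed. Aff1 rose by 0.54, a call lost after trend removal (0.24, adjusted p = 0.117) and when its probe sets were averaged (0.12, 0.354), in a range of 0.00218 to 0.354. Cxxc1, a subunit of the Set1 methyltransferase complexes, fell by 0.45, and the methyltransferase Ehmt2, also called G9a, fell by 0.52, a call missed without DKO replicate 3 (0.0512, in a range of 0.00706 to 0.0512).

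Among 35 acetylation partners there were 2 rises (5.71%) and 3 falls (8.57%), beside 9.71% and 7.69% of all genes. With the trend removed there were 2 rises and 6 falls, beside 7.23% and 7.42% of all genes. Sap18, a subunit of the Sin3 complex, and the acetyltransferase Kat2b rose by 0.73 and 0.57, and both calls were kept in all 17 alternatives. Brms1, also of the Sin3 complex, fell by 0.67 and the acetyltransferase adaptor Ing5 by 0.43. The call of Brms1 was lost without DKO replicate 1 or 3 or WT replicate 2 or 3 (adjusted p = 0.0583 to 0.0816, in a range of 0.00111 to 0.0816). That of Ing5 was lost without any 1 DKO array (0.0945 to 0.147), without WT replicate 1 (0.113) or 3 (0.111) and with median centring, in a range of 0.0114 to 0.147. Of 13 DNA methylation partners Uhrf2 rose by 0.38 and Mbd3 fell by 0.38, which is 7.69% in each direction. With the trend removed 0 of the 13 rose and 2 fell. Uhrf2 missed the threshold without DKO replicate 2 (0.0565) or 3 (0.0712), with quantile normalisation, with cyclic loess (0.0797) and with the trend removed (0.14, 0.338), in a range of 0.00977 to 0.338. Mbd3 missed it without any 1 DKO array or WT replicate 2 or 3 (0.0811 to 0.142), under each other scaling and with the trend removed (0.0915), in a range of 0.00848 to 0.142.

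Among 42 further remodeller genes there were 7 rises (16.7%) and 8 falls (19%), beside 9.71% and 7.69% of all genes. With the trend removed there were 3 rises and 12 falls, beside 7.23% and 7.42% of all genes. Pbrm1, the bromodomain subunit of the PBAF form of SWI/SNF, rose 2.05-fold (adjusted p = 0.00198) and was at 0.63 to 1.23 on the log2 scale over 17 alternatives. Bcl7a and Bcl7c, accessory subunits of SWI/SNF, fell by 0.64 and 0.66. The NuRD subunit Gatad2b rose by 0.66 and was at 0.40 with the trend removed. All 4 passed in all 17 alternatives.

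**Figure D5:**
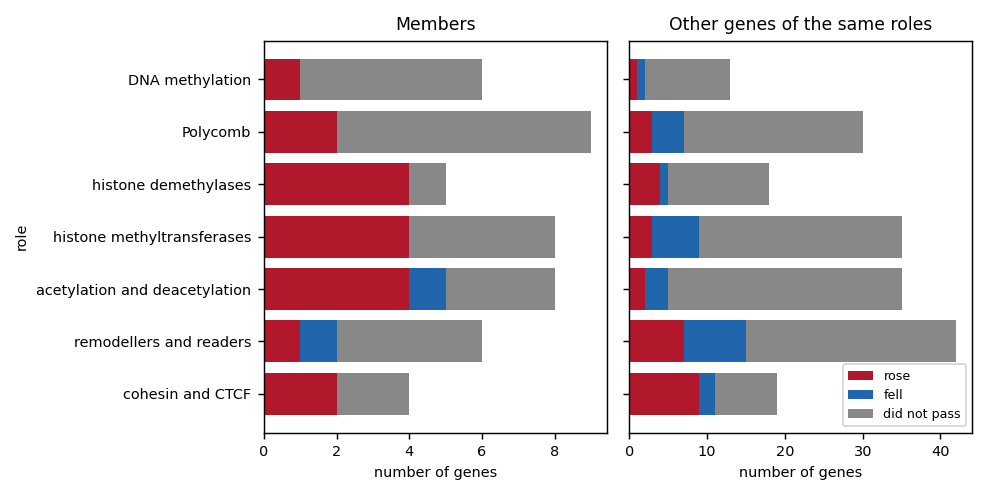
Bars give the number of genes that rose, fell or did not pass in each of the 7 roles, for the 46 genes described here on the left and for 192 other genes of the same roles on the right. Rises outnumber falls in every role on the left except remodellers and readers (1 and 1). On the right, genes of cohesin, condensin and Smc5/6 show 9 rises and 2 falls and methyltransferase partners 3 and 6. Of all genes 9.71% rose and 7.69% fell.

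Markers of the sorted and of other cells were read beside the members. Of 8 genes of the gate and its subsets 4 rose and 2 fell, where 9.71% of all genes rose and 7.69% fell. Ly6a, the gene of the gate marker Sca1, was among the marker names not analysed. The receptor Kit of the gate rose by 0.73 and the pan-leukocyte Ptprc by 0.76. Slamf1, a stem cell marker, rose by 1.95, and so did Cd48, a marker of progenitors more than of stem cells, by 1.46. Flt3, a receptor of lymphoid-primed progenitors, fell by 1.32 and Thy1 by 1.09. The stem cell marker Procr (-0.36) and Cd34 (0.02) did not pass. Of 12 markers of mature lineages, among them Cd3e, Ms4a1 and Itgam, 0 rose and 0 fell. Their mean signal was 4.90 to 5.02 in DKO and 4.89 to 5.07 in WT. Of these 12, 6 had a mean signal under 4.89, the lowest lower quartile of any array over the tested genes. A fall could hardly show there. Of 9 mast cell and basophil markers 3 rose and 3 fell (mean signal 6.44 to 6.49 against 5.86 to 6.10). Cpa3, Ms4a2 and Hdc rose, at 3.43, 2.24 and 1.27. Mcpt8, Prss34 and Fcer1a fell, at -1.32, -0.82 and -0.68. Of 8 platelet markers 4 rose (7.01 to 7.73 against 6.65 to 6.73), while Pf4 (-0.51), Ppbp (-0.44) and Vwf (-0.12) were lower without passing. Of 10 granulocyte-monocyte progenitor markers 7 fell and 1 rose (7.26 to 7.61 against 8.28 to 8.37), and of 9 lymphoid markers 3 fell (5.26 to 5.66 against 6.04 to 6.24). The mean signal of the 46 members was 8.53 to 8.58 in DKO and 8.32 to 8.37 in WT. The part of a changed cell mixture in the members' values was not tested.

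Of 17 markers of cycling cells 1 rose and 1 fell (5.88% each), beside 9.71% and 7.69% of all genes. Their mean signals were 8.64, 8.23 and 8.62 in DKO and 8.43, 8.76 and 8.46 in WT. DKO replicate 2 was the lowest array by this mean. Within the DKO group it was also the lowest for Dnmt1, Ezh2 and Suz12, and WT replicate 2, the highest array by this mean, was the highest WT array for Dnmt1 and Suz12, genes picked after their values were seen. In other members, among them Kdm6a, Kdm5b and Kmt2a, DKO replicate 2 was the highest DKO array. The part of cell cycling in the differences of the members was not tested.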

How the data were processed

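Per the labels' protocols, RNA of 3 DKO and 3 WT samples went through NuGEN Pico amplification before hybridisation to Mouse Gene 1.0 ST arrays from Affymetrix. The deposited values are taken as log2 signals per probe set, because the authors' sample titles name RMA, which gives log2 values, and the values run from 1.25 to 13.7. The design text names MAS 5.0 instead. The submitters' processing notes list Affymetrix Expression Console 1.0. Background settings and genome build were not stated in the labels.

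Of 35556 probe sets, 21789 carried 1 gene symbol in the platform annotation, 1621 several and 12146 none. Nothing was filtered for dim signal. DKO was compared with WT by limma 3.58.1 in R 4.3.3 (lmFit, eBayes, two-sided, no covariate, 5.52 prior and 4 residual degrees of freedom), and p-values were adjusted over all 19938 genes. The labels call the 3 samples of a group biological replicates. Of 199 partner names 7, and of 81 marker names 8, were not analysed here. The script was tested on simulated data. Spans came from RefSeq GRCm38.p6, and the trend was a loess over log10 span and mean signal (span parameter 0.3).

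Members and lists were chosen with earlier results of these data known. Values per array are given for called members without overlap and a difference of at least 0.5, for Runx1 and Runx3, and for up to 2 more members per role by smallest p. Up to 4 called partners per role with the largest difference are named. Uty, Xist, Kdm5d, Eif2s3y, Ddx3x, Eif2s3x, Kdm5c and the markers fall outside this rule. Uty, Xist and Kdm5d were looked at, and the other X-linked and Y-linked genes named, after the value of Kdm6a was seen. Alternatives were other scalings, filters on dim genes, the mean of probe sets, other limma settings, a replicate block, a stricter threshold and leaving out each array.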

Additional observations from a re-analysis of the deposited data

How the results depend on the processing

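Of the 20 called members, 11 kept their call in every one of the 17 alternatives in which they were tested (16 for Hdac9, which was among the dimmest 50% of genes), 9 lost it in at least 1, and 0 changed direction. Of the 26 that were not called, 8 passed in at least 1 alternative and 14 changed sign in at least 1. Counts are given as rises and falls. At an adjusted p under 0.01 there were 11 and 1 among members, 17 and 8 among partner genes and 1058 and 588 among all genes. After removal of the span and signal trend there were 10 and 5 among members and 13 and 39 among partner genes. Cyclic loess gave 5 member falls and 17 partner rises, and quantile normalisation 17 partner rises. Without the dimmest 50% of genes 1 member fell. Median centring gave 2254 rises and 1121 falls over all genes, so that 66.8% of calls rose beside 55.8% in the deposited values. When each array was left out in turn, 12 to 17 members rose and 1 to 3 fell, 19 to 30 partner genes rose and 11 to 23 fell, and over all genes 1250 to 1868 rose and 843 to 1388 fell. The labels number the replicates 1 to 3 in both groups, but deviations from the group means did not pair by number (correlations of -0.0087, -0.0954 and -0.0419). The replicate block gave 15 rises and 1 fall among members and 24 and 19 among partner genes, with the calls of Kdm1a, Kmt2a, Smc3 and Smarca4 missed among members, and no array correlated best with its own number. Precision is bounded by having 3 arrays a group.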

Other observations

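Of the SWI/SNF subunits in the partner list, 4 that define the PBAF form rose in DKO, a grouping chosen after the values were seen. Beside Pbrm1, Arid2 rose by 0.55, Phf10 by 0.43 and Brd7 by 0.40. Pbrm1 and Arid2 passed under quantile normalisation, median centring, cyclic loess and removal of the trend, where Arid2 was at 0.30. Phf10 and Brd7 passed under median centring but not under quantile normalisation (0.27 and 0.25), cyclic loess (0.29 and 0.27) or removal of the trend (0.32 and 0.21). Of 15 other SWI/SNF subunits 0 rose, 4 fell and 11 did not pass, where 9.71% of all genes rose and 7.69% fell. Among these 15, 8 fell under quantile normalisation, 3 under median centring, 7 under cyclic loess and 8 with the trend removed. The shares of all genes that fell in these fits were 7.75%, 5.62%, 7.42% and 7.42%. Beside Bcl7a and Bcl7c, Smarcd1 fell by 0.42 and Smarcb1 by 0.32, the latter not past the threshold with median centring.

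Of 10 partner genes of the NuRD complex, which joins a remodelling motor to deacetylases, 1 rose, 4 fell and 5 did not pass. Of all genes 9.71% rose and 7.69% fell. The motor Chd4 is a member and is not among these 10. Chd3 fell by 0.61, Mta1 by 0.57 and Gatad2a by 0.57, while Gatad2b, the alternative to Gatad2a, rose by 0.66. Mbd3 fell by 0.38 without holding under any of the other scalings. Mta2 (-0.06), Mta3 (0.04), Mbd2 (-0.23), Rbbp4 (0.32) and Rbbp7 (0.15) did not pass. Mbd2 passed as a fall under quantile normalisation (-0.37), cyclic loess (-0.36) and removal of the trend (-0.49). Rbbp4 passed as a rise under median centring (0.36). The calls of Chd3, Mta1, Gatad2a and Gatad2b held under quantile normalisation, median centring, cyclic loess and removal of the trend, where Gatad2a was at -0.64 and Gatad2b at 0.40. This grouping too was chosen after the values were seen, and it was not tested as a set. Apart from Pbrm1, Bcl7a, Bcl7c, Gatad2b, Mbd3 and the member Chd4, the genes of these 2 paragraphs were not read gene by gene with single arrays left out.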
